A study of Mus musculus with 12 samples.

Results

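The 7 genes described here, Icam1, Vcam1, Selp, Pecam1, Cldn5, Vwf and Cdh5, encode adhesion molecules, junction proteins and a clotting factor of the vessel wall. They were taken by gene name, and all 7 were measured, by 11 probe sets, among the 12393 genes tested in whole-brain RNA. The 12 arrays held 3 samples of each of 4 mouse genotypes: USP18ko:IFNARko, in which Usp18 and Ifnar1 are both knocked out (called the double knockout below), USP18ko, IFNARko and wild type (WT). All mice were adult, untreated and kept pathogen-free, and their exact age, their sex and the design of the knockout alleles are not given in the labels. Usp18 encodes a protease that removes ISG15 from proteins and restrains signalling by the type I interferon receptor, and Ifnar1 encodes a chain of that receptor. The series was made to examine the role of Usp18 in the brain.

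Endothelial cells line the blood vessels, and in the brain they form the blood-brain barrier, sealed by claudin-5 (Cldn5) in tight junctions and by VE-cadherin (Cdh5) in adherens junctions. In a resting brain the vessels carry little of the molecules that hold leukocytes. On inflamed endothelium P-selectin (Selp), released to the surface from storage granules that also hold von Willebrand factor (Vwf), lets leukocytes roll, ICAM-1 (Icam1) and VCAM-1 (Vcam1) bind leukocyte integrins and arrest them, and PECAM-1 (Pecam1) helps them pass between the cells. Several of these genes are also used outside endothelium: Icam1 by microglia and leukocytes, Vcam1 by other brain cells, Selp, Vwf and Pecam1 by platelets or their precursors.

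Values are log2 signals, on which a difference of 1 is a doubling. Differences were tested with limma in 1 fit of all 12 arrays, and a gene was called at a Benjamini-Hochberg adjusted p under 0.05 over all 12393 genes. Whether replicates came from different mice is not stated in the labels, and the p-values cover no more than the spread among these arrays, possibly a technical one. In whole-brain RNA, fewer cells of a type and less RNA per cell cannot be told apart.

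Some arrays stood apart from their group. IFNARko replicate 1 stood out in the control probes for beta-actin, whose 3' end read 1.48 higher than the 5' end on the log2 scale, a mark of partly degraded or poorly labelled RNA, where the other 11 arrays read 0.20 to 0.54. The transcript Xist, made from the inactive X chromosome, was high in all 3 double knockout arrays and in WT replicate 1 (10.17 to 11.34) and low in the other 8 arrays (4.98 to 5.69). The Y-linked transcript Eif2s3y was low in WT replicate 1 and in double knockout replicates 1 and 3 (3.05 to 3.22) and read 7.26 to 8.94 on the 8 arrays with low Xist. Double knockout replicate 2 read 7.16, so that it carried both the Xist and the Y-linked signal. By Xist, sex and genotype cannot be told apart between the double knockout and either single knockout, whereas Eif2s3y sets only 2 of the 3 double knockout arrays apart. The targeted gene Ifnar1 read 6.56 to 6.68 in the double knockout and 6.24 to 6.59 in IFNARko, against 7.44 to 8.21 in WT. Usp18 read 3.50 to 3.71 in the double knockout and 3.55 to 3.76 in USP18ko, against 4.04 to 4.36 in WT, but IFNARko arrays read equally low at 3.53 to 3.67. Whether these probe sets lie inside the deleted parts is not known from the sources used.

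No marker of brain endothelium was called. Of 21 brain endothelial identity genes, 19 were measured, and 0 of them were called in any of the 6 comparisons made. In these comparisons only 0% to 1.51% of all genes were called. The mean log2 signal over these 19 genes was 7.68 to 7.72 in the double knockout, 7.63 to 7.70 in USP18ko and 7.69 to 7.70 in IFNARko, against 7.53 to 7.69 in WT. Their median log2 difference in USP18ko against WT was 0.07, where the median of all genes was -0.02.

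Among the adhesion genes, Icam1 rose in USP18ko brain against WT, and fell in the double knockout against USP18ko. Icam1 is the ligand of the leukocyte integrins LFA-1 and Mac-1. The gene lies on chr9:21015940-21028814 (RefSeq, GRCm38.p6, as for the positions of the other genes below). Its 1 probe set read 5.02, 5.31 and 5.01 in the double knockout and 6.45, 7.14 and 6.46 in USP18ko. It read 5.93, 5.51 and 5.33 in IFNARko, and 5.45, 5.22 and 5.36 in WT. Each USP18ko array was higher than all 9 arrays of the other genotypes, and the other genotypes overlapped except that the double knockout lay below IFNARko.

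**Figure D1:**
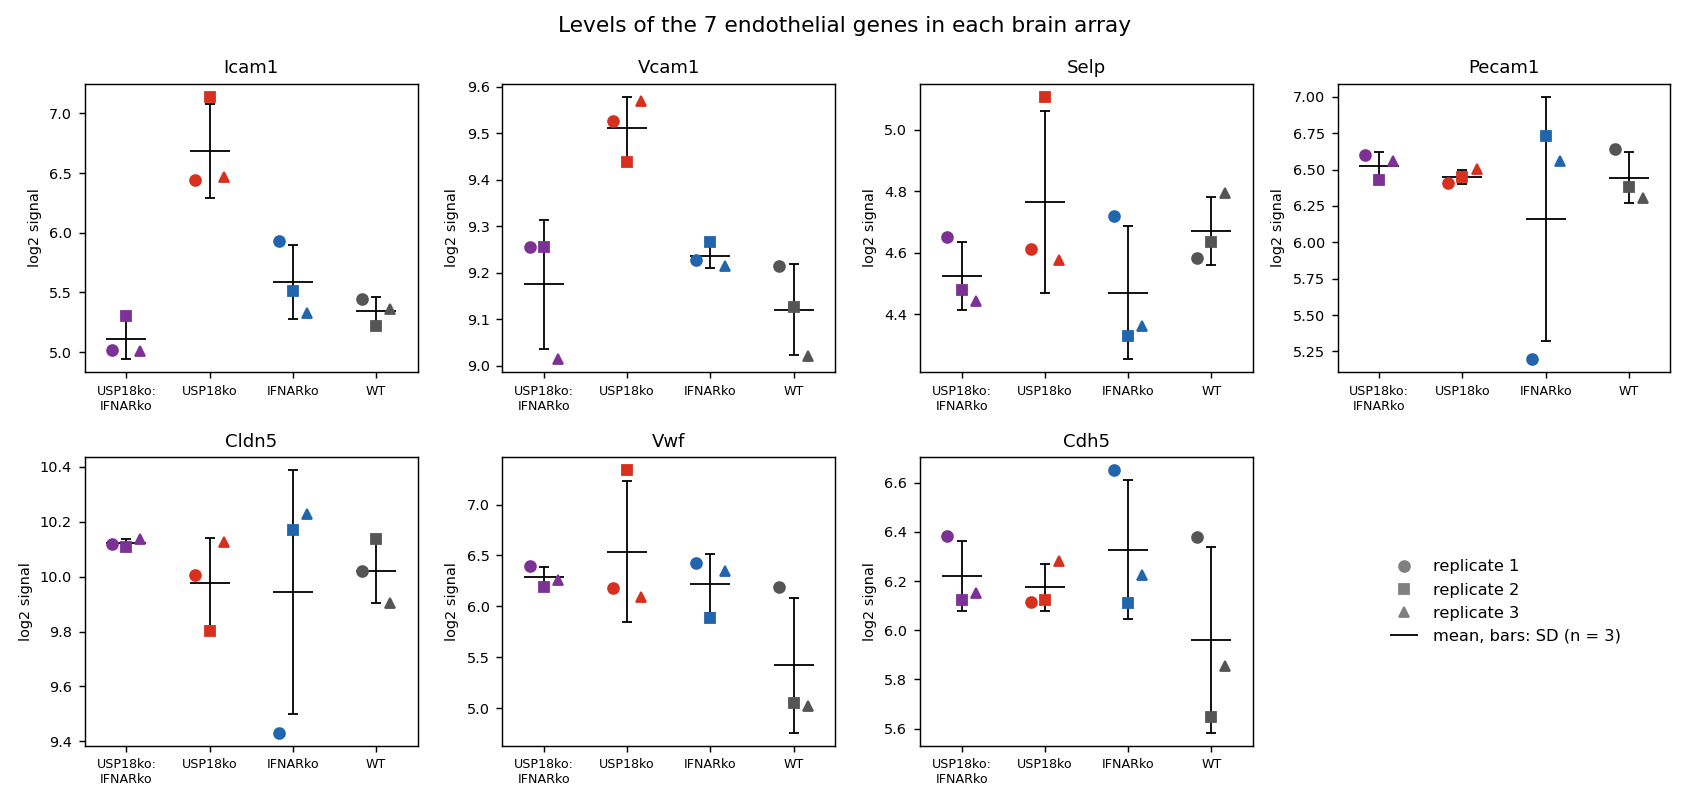
Log2 signal of the 7 endothelial genes on each array, with 1 panel per gene, genotype on the x axis, marker shape for replicate, and the mean with SD (n = 3) as a line with bars. Icam1 and Vcam1 are higher on the 3 USP18ko arrays than on the other 9, Vwf is lowest on 2 of the 3 WT arrays, and Pecam1 and Cldn5 each have a low value on IFNARko replicate 1. The y axes differ between panels and do not start at 0.

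The start of Icam1 is shown because it was the member whose level changed, and that of Selp because it is another adhesion gene known to be inducible, which was not called. Both are the RefSeq windows of build GRCm38.p6, + strand, from 250 bases before to 50 bases after the annotated start, at chr9:21015690-21015989 for Icam1 and chr1:164115014-164115313 for Selp. Capitals mark matches, on either strand, to a kappa-B pattern (GGANNNTCC), a GAS pattern (TTCNNNGAA), an ISRE pattern (GAAA, any 2 bases, GAAA) and a TATA pattern (TATAAA).
Icam1: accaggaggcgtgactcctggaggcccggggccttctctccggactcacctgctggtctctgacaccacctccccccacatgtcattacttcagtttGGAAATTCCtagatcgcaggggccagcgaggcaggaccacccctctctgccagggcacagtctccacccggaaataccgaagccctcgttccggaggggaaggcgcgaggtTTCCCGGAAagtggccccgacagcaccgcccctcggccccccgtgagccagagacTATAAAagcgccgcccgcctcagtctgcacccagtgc
Selp: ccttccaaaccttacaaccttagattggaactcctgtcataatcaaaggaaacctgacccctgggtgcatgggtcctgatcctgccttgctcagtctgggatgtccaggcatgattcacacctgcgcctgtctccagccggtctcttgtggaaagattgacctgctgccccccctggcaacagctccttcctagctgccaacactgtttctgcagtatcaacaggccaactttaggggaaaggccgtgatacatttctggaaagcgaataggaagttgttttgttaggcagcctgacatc

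The Icam1 window held 1 kappa-B match, GGAAATTCC, from position -153, and 1 GAS match, TTCCCGGAA, from position -42, counted from the annotated start. It also held a TATA match from position 14, after the annotated start, and no ISRE match. The kappa-B pattern is found in 8.6% of all 32851 promoter windows, the GAS pattern in 8.3%, the ISRE pattern in 3.4% and the TATA pattern in 13.6%. None of the 4 patterns is in the Selp window. Other forms of these elements, and bases outside the windows, were not searched. As background, kappa-B elements are bound by NF-kappaB, and GAS and ISRE elements are known from interferon-induced genes. Of the other members, Cldn5 also had a window, with 1 kappa-B match and none of the other patterns, so that 3 of the 7 genes had one in the table used.

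In USP18ko against WT, Icam1 averaged 6.68 ± 0.40 in USP18ko and 5.34 ± 0.12 in WT (SD, n = 3 each). The log2 difference was 1.34 (SE 0.19, 95% interval 0.92 to 1.76, limma adjusted p = 0.00168), a ratio of signals of 2.53 (1.89 to 3.39). It was the 1 member called of 7, in a comparison where limma called 1.15% of all genes, 142 higher (1.15%) and 1 lower (0.00807%). At an unadjusted p under 0.05 there were 3 members, Icam1, Vcam1 and Vwf, and 4.60% of all genes. With each array left out in turn, this difference stayed between 1.11 and 1.46 and called each time, and it was 1.11 without USP18ko replicate 2, the highest array. Vcam1, Vwf, Cdh5, Selp, Pecam1 and Cldn5 were not called here.

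**Figure D2:**
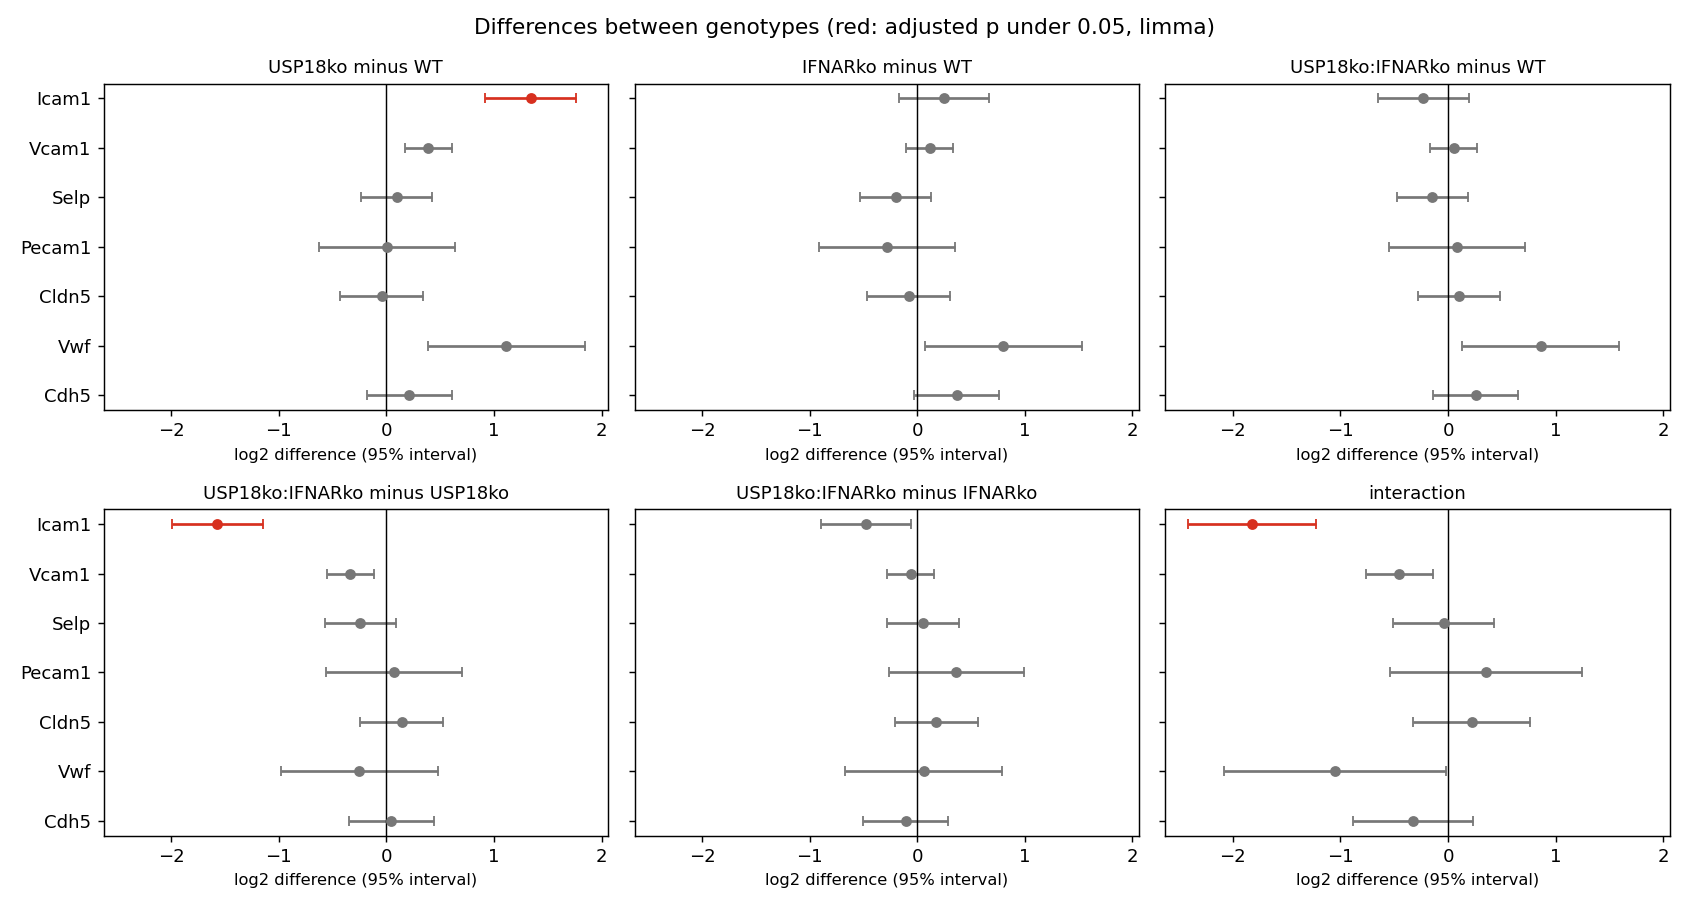
Log2 differences of the 7 genes with 95% intervals, 1 panel for each of the 6 comparisons, where the interaction is the double knockout minus IFNARko difference less the USP18ko minus WT difference. Red marks an adjusted p under 0.05: Icam1 at 1.34 in USP18ko minus WT, at -1.57 in the double knockout minus USP18ko, and at -1.82 in the interaction.

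In the double knockout against USP18ko, Icam1 was lower without overlap of the arrays. It averaged 5.11 ± 0.17 in the double knockout and 6.68 ± 0.40 in USP18ko (SD, n = 3 each). The log2 difference was -1.57 (SE 0.19, 95% interval -1.99 to -1.15, limma adjusted p = 3.57e-04), and Icam1 was again the 1 called member of 7, where 1.51% of all genes were called. That fit ignored replicate number. With replicate number added to the fit as a block, Icam1 stayed called (limma adjusted p = 9.62e-04). At an unadjusted p under 0.05 there were 2 members, Icam1 and Vcam1, and 4.95% of all genes. The same 2 members were lower without overlap of the groups, as were 8.09% of all genes. These groups also differ in their sex-linked transcripts. With the level of Eif2s3y, a gene of the Y chromosome, as a covariate, the difference was -1.48 (adjusted p = 0.00989), a fit in which double knockout replicate 2 counts with the arrays of high Eif2s3y.

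The interaction asks whether loss of Usp18 changed Icam1 differently with and without the receptor gene. Without the receptor the double knockout lay below IFNARko, with a log2 difference of -0.48 (SE 0.19, 95% interval -0.90 to -0.06, adjusted p = 0.566) that did not pass, and that was -0.31 without IFNARko replicate 1. The interaction for Icam1 was -1.82 (SE 0.27, 95% interval -2.41 to -1.22, limma adjusted p = 0.00407), and it was the 1 member called of 7, where 0.847% of all genes were called. At an unadjusted p under 0.05 there were 3 members, Icam1, Vcam1 and Vwf, and 4.77% of all genes. With Eif2s3y as a covariate it was -1.68 and no longer called (adjusted p = 0.132), again with double knockout replicate 2 among the arrays of high Eif2s3y. It was called with each of the 12 arrays left out in turn, from -1.95 to -1.59, and was -1.92 (adjusted p = 0.00842) without double knockout replicate 2. The interaction and the comparison of USP18ko with WT share the USP18ko and WT arrays.

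Against WT, Icam1 did not pass in the other genotypes. The log2 difference was 0.25 in IFNARko (95% interval -0.17 to 0.67, adjusted p = 0.63; 0.0753 without IFNARko replicate 1) and -0.23 in the double knockout (95% interval -0.65 to 0.19, adjusted p = 0.995). Limma called 0 of the 7 members in both comparisons, where 0.00807% and 0.0161% of all genes were called. At an unadjusted p under 0.05 each comparison had 1 member, Vwf in both. Between the double knockout and IFNARko 0 of 7 members and 0% of genes were called, and the 1 member at an unadjusted p under 0.05 was Icam1. At that p there were 9.79%, 4.09% and 8.25% of all genes in these 3 comparisons. Members whose groups did not overlap were Vcam1, higher in IFNARko than in WT (1 of 7, and 4.89% of all genes), Vwf, higher in the double knockout than in WT (1 of 7, and 4.08%), and Icam1, lower in the double knockout than in IFNARko (1 of 7, and 11.2%). For Vcam1 the nearest arrays of IFNARko and WT both read 9.2151 after rounding, and on its other probe sets these groups overlapped. Over all 4 genotypes, the moderated F test called Icam1 (adjusted p = 0.0015) and none of the other 6 members, where 1.45% of genes were called.

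Vcam1 was also highest in USP18ko, by a smaller amount that did not pass. It lies on chr3:116110020-116129688 and encodes the ligand of the leukocyte integrin VLA-4. Its brightest probe set read 9.25, 9.26 and 9.01 in the double knockout, 9.53, 9.44 and 9.57 in USP18ko, 9.23, 9.27 and 9.22 in IFNARko, and 9.22, 9.13 and 9.02 in WT. The 3 USP18ko arrays lay above all 9 others, and the lowest IFNARko array and the highest WT array both read 9.22. In USP18ko against WT the log2 difference was 0.39 (SE 0.10, 95% interval 0.17 to 0.61, limma adjusted p = 0.135). In the double knockout against USP18ko it was -0.34 (SE 0.10, 95% interval -0.55 to -0.12, adjusted p = 0.242), and with array weights, which give noisy arrays less influence, it was called at -0.33 (adjusted p = 0.0264). The interaction was -0.45 (SE 0.14, adjusted p = 0.437).

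The other probe sets of Vcam1 gave a partly different picture. A second probe set read 7.18, 7.13 and 7.11 in the double knockout, 7.20, 7.31 and 7.37 in USP18ko, 6.57, 7.15 and 6.95 in IFNARko, and 6.67, 6.83 and 7.17 in WT. The remaining one read 8.36, 8.07 and 8.16 in the double knockout, 8.12, 8.21 and 8.51 in USP18ko, 6.80, 8.27 and 7.95 in IFNARko, and 7.98, 8.002 and 8.05 in WT. All 3 probe sets were thus higher on every USP18ko array than on every WT array, with log2 differences of 0.39, 0.40 and 0.27. None passed when each probe set was tested by itself (adjusted p = 0.175, 0.929 and 1), where 0.932% of all probe sets did. They disagreed on the double knockout, which lay below USP18ko without overlap in the brightest and in the second probe set (-0.34 and -0.15) and overlapped it in the remaining one (-0.09). Their interactions also differed in sign, at -0.45, -0.15 and 0.25, and the mean of the probe sets gave -0.12 (adjusted p = 0.985). For USP18ko against WT, 2 of 7 members, Icam1 and Vcam1, were higher without overlap of the groups, as were 4.07% of all genes.

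**Figure D3:**
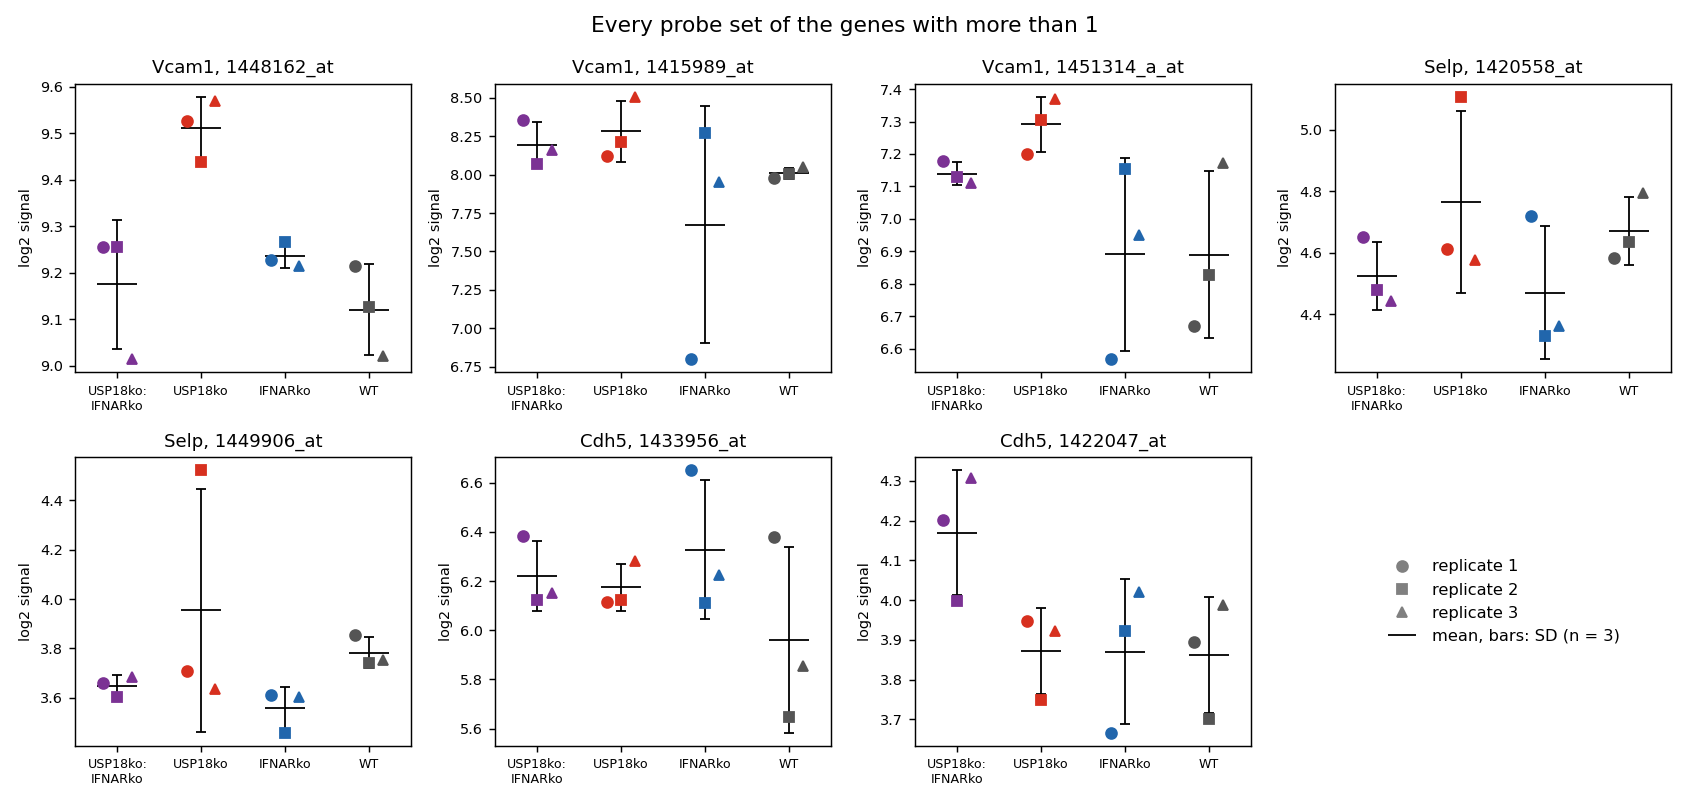
Log2 signal per array for the 3 probe sets of Vcam1 and the 2 each of Selp and Cdh5, drawn as in the plot of the 7 genes, with the brightest probe set of each gene first. All Vcam1 probe sets are higher on the USP18ko arrays than on the WT arrays, and both Selp probe sets have their highest value on USP18ko replicate 2, at 5.11 and 4.52.

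Selp, on chr1:164115264-164150026, had low signals and was not called in any comparison. The brighter of its 2 probe sets read 4.65, 4.48 and 4.44 in the double knockout, 4.61, 5.11 and 4.58 in USP18ko, 4.72, 4.33 and 4.36 in IFNARko, and 4.58, 4.64 and 4.79 in WT. On this probe set all 4 genotypes overlapped, and USP18ko replicate 2 was the highest array. In USP18ko against WT the log2 difference was 0.09 (95% interval -0.24 to 0.43, adjusted p = 1), and without USP18ko replicate 2 it was -0.08. The dimmer probe set likewise read 3.71, 4.52 and 3.63 in USP18ko, against 3.85, 3.74 and 3.75 in WT. It read 3.66, 3.60 and 3.68 in the double knockout and 3.61, 3.46 and 3.60 in IFNARko. These genotypes lay below WT without overlap, by -0.13 and -0.23, and did not pass (limma adjusted p = 0.998 and 0.667 over probe sets). Among all genes, 14.4% and 11.6% did not overlap, in either direction, in these comparisons. Selp levels lie at the 16.95th percentile of gene means, and no detection calls were used here.

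Vwf was lower in 2 of the 3 WT arrays than on any other array. It encodes the large multimeric protein that binds platelets and is stored with P-selectin in endothelial granules, and lies on chr6:125552948-125686679. Its 1 probe set read 6.40, 6.19 and 6.26 in the double knockout, 6.18, 7.34 and 6.10 in USP18ko, 6.43, 5.89 and 6.34 in IFNARko, and 6.19, 5.05 and 5.02 in WT. WT replicate 1, the WT array with high Xist, lay among the knockout arrays. In USP18ko against WT the log2 difference was 1.12 (SE 0.34, 95% interval 0.39 to 1.85, limma adjusted p = 0.305), in IFNARko against WT 0.80 (SE 0.34, adjusted p = 0.503) and in the double knockout against WT 0.86 (SE 0.34, adjusted p = 0.995). These 3 comparisons share the WT arrays.

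The call for Vwf depended on single arrays. Without WT replicate 1 the USP18ko difference was 1.50 and was called (adjusted p = 0.0385), so that 2 of 7 members were called. Without USP18ko replicate 2 it was 0.72 (adjusted p = 0.897). The WT arrays with the Y-linked signal, replicates 2 and 3, were the low ones. All USP18ko and IFNARko arrays carried that signal too (Eif2s3y 7.26 to 8.94), and Vwf read 5.89 to 7.34 on them. On WT replicates 2 and 3 the mean over the 19 brain endothelial genes was also lower, at 7.56 and 7.53, against 7.69 on WT replicate 1. The part of sex or of endothelial RNA content in the Vwf level was not tested. In the double knockout against USP18ko the log2 difference was -0.25 (95% interval -0.98 to 0.48, adjusted p = 1), and the interaction was -1.05 (SE 0.48, 95% interval -2.09 to -0.02, adjusted p = 0.941).

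USP18ko replicate 2 was the highest of the 12 arrays for Icam1 (7.14), for both Selp probe sets (5.11 and 4.52) and for Vwf (7.34). It was the lowest USP18ko array for the brightest Vcam1 probe set (9.44) and for Cldn5 (9.80). On the other Vcam1 probe sets replicate 1 was the lowest instead, at 7.20 and 8.12, where replicate 2 read 7.31 and 8.21. On USP18ko replicate 2 the mean over 10 microglia and macrophage markers was 7.50, against 6.94 and 7.24 on the other USP18ko arrays. The astrocyte filament gene Gfap, named after its values were seen, read 10.57 on replicate 2, against 9.84 and 9.90. Gfap also read 10.23 on WT replicate 2, against 8.93 and 9.04 on the other WT arrays. The part of these in the Selp and Vwf values was not tested.

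The junction genes Cldn5 and Cdh5 and the gene Pecam1 were not called in any comparison. They lie on chr16:18776847-18778262, chr8:104101613-104144504 and chr11:106654213-106715281. Cldn5 read 10.12, 10.11 and 10.14 in the double knockout, 10.005, 9.80 and 10.13 in USP18ko, 9.43, 10.17 and 10.23 in IFNARko, and 10.02, 10.14 and 9.90 in WT. In USP18ko against WT its log2 difference was -0.04 (95% interval -0.43 to 0.34, adjusted p = 1), so that changes within that interval cannot be told from none. The double knockout differed from WT by 0.10 (95% interval -0.28 to 0.49, adjusted p = 0.995). The genotypes overlapped, and IFNARko replicate 1 was the lowest array.

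Cdh5 read 6.38, 6.12 and 6.15 on its brighter probe set in the double knockout, 6.12, 6.12 and 6.28 in USP18ko, 6.65, 6.11 and 6.23 in IFNARko, and 6.38, 5.65 and 5.86 in WT. As with Vwf, WT replicates 2 and 3 were the lowest of the 12 arrays. The log2 difference was 0.21 in USP18ko (95% interval -0.18 to 0.61, adjusted p = 1), 0.37 in IFNARko (-0.03 to 0.76, adjusted p = 0.521) and 0.26 in the double knockout (-0.14 to 0.65, adjusted p = 0.995), each against WT. The dimmer probe set of Cdh5 read 4.20, 3.999 and 4.31 in the double knockout, 3.95, 3.75 and 3.92 in USP18ko, 3.67, 3.92 and 4.02 in IFNARko, and 3.90, 3.70 and 3.99 in WT. There the double knockout was higher than WT without overlap, by 0.31 (adjusted p = 0.998 over probe sets). By their brightest probe sets, 4.08% of all genes were higher without overlap in this comparison.

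Pecam1 read 6.60, 6.43 and 6.56 in the double knockout, 6.40, 6.45 and 6.50 in USP18ko, 5.20, 6.73 and 6.56 in IFNARko, and 6.64, 6.38 and 6.31 in WT. A single array, IFNARko replicate 1, lay far below the other 11, which spanned 6.31 to 6.73. The log2 difference in USP18ko against WT was 0.01 (95% interval -0.62 to 0.64, adjusted p = 1). In IFNARko against WT it was -0.28 (95% interval -0.91 to 0.35, adjusted p = 0.713), and without IFNARko replicate 1 it was 0.20. The same array was the lowest of the 12 for Cldn5 and for 2 of the 3 Vcam1 probe sets, the highest for the brighter Cdh5 probe set, and the array with the high beta-actin 3' minus 5' difference. The part of RNA quality in these values was not tested.

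The order of genotype means differed between members. Icam1 ran from USP18ko through IFNARko and WT to the double knockout, and only the step from USP18ko to IFNARko, a gap of 1.09, was free of overlapping arrays. Vcam1 ran from USP18ko through IFNARko and the double knockout to WT, again with a first gap, of 0.28, free of overlap. In Selp, Pecam1, Cldn5, Vwf and Cdh5 every pair of neighbouring genotypes overlapped. WT had the lowest mean for Vcam1, Vwf and Cdh5.

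Leukocyte partners of these adhesion molecules were examined next. Of 12 such genes 11 were measured, and 2 of them rose in USP18ko against WT, Itgb2 and Itgam, which encode both chains of the integrin Mac-1, a receptor for ICAM-1. Itgb2 averaged 4.40 ± 0.0034 in the double knockout (SD, n = 3) and read 5.43, 5.86 and 6.07 in USP18ko, against 4.58, 4.69 and 4.69 in WT, a log2 difference of 1.14 in USP18ko against WT (SE 0.14, adjusted p = 4.58e-04). Itgam differed by 0.80 (SE 0.14, adjusted p = 0.00909). In the double knockout against USP18ko Itgb2, Itgam and Selplg, the ligand of P-selectin, fell by 1.39, 0.72 and 0.43 (adjusted p = 5.83e-05, 0.0167 and 0.0413). Selplg averaged 6.15 in USP18ko and 6.07 in WT, against 5.81 in IFNARko and 5.72 in the double knockout. Itgal and Itga4, named after their values were seen, encode the alpha chains of LFA-1 and VLA-4. They averaged 4.63 and 3.92 in USP18ko, against 4.74 and 3.89 in WT. Itgam is also among the microglia and macrophage markers below. The list's median log2 difference in USP18ko against WT was 0.07, where the median over all genes was -0.02. Limma called 1.15% of all genes for USP18ko minus WT, and 1.51% for double knockout minus USP18ko.

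The other vascular lists had no called gene. In the 6 comparisons only 0% to 1.51% of all genes were called. None was called among 12 other endothelial adhesion molecules, 10 measured tight and adherens junction genes and 8 genes of storage granules and coagulation. The same held for 11 pericyte and smooth muscle genes and 7 platelet and red cell genes. In the order given, the list medians of the log2 difference in USP18ko against WT were 0.02, 0.04, 0.09, -0.10 and 0.02. Sele, the other inducible selectin of endothelium, named after its values were seen, read 3.60 to 3.89 in the double knockout and 3.65 to 3.87 in USP18ko, against 3.78 to 3.97 in WT.

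**Figure D4:**
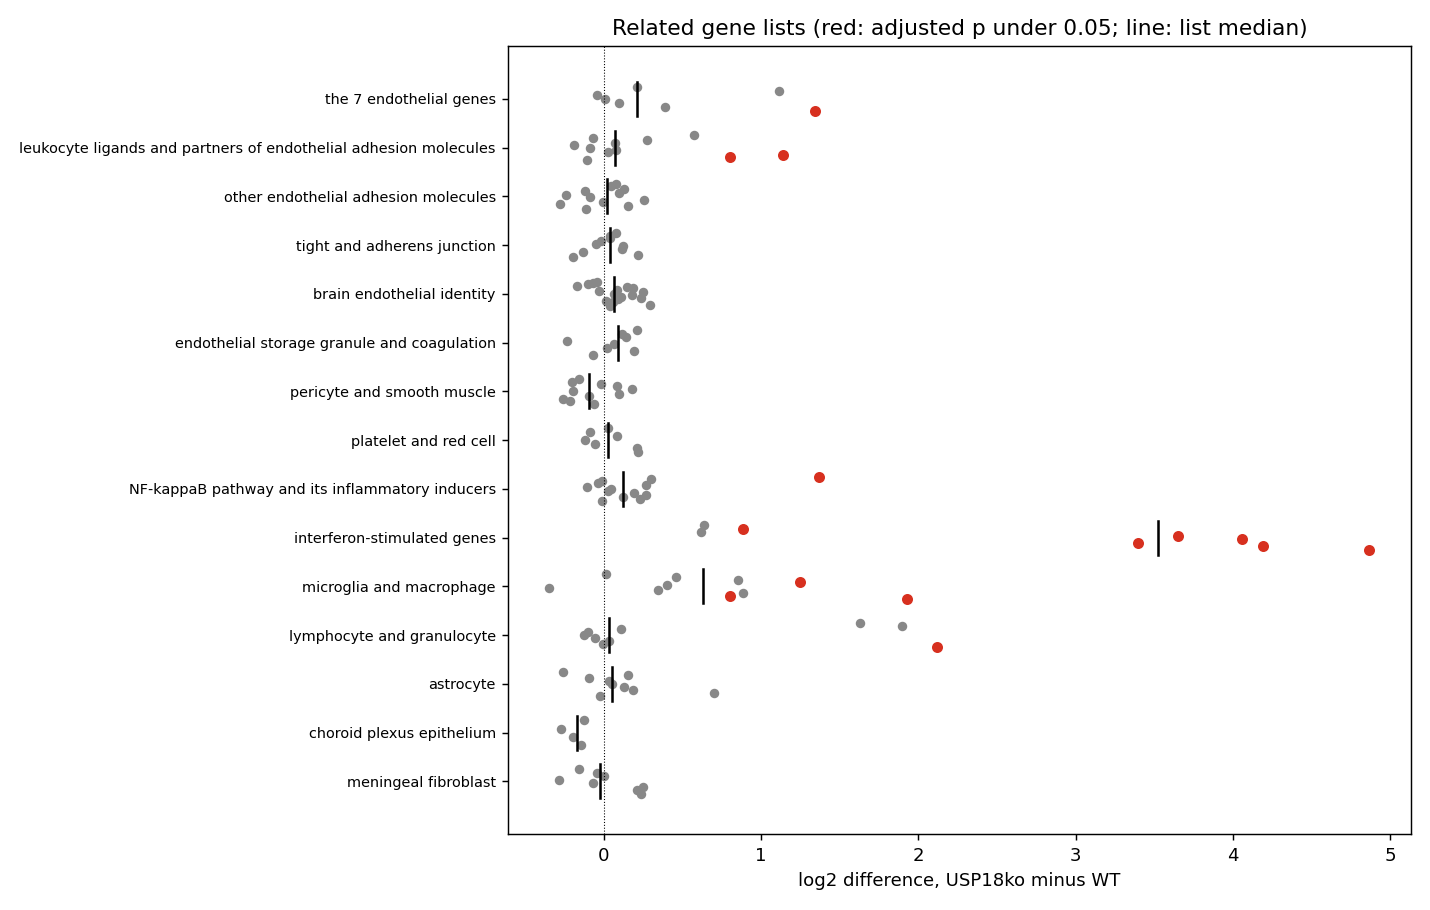
Log2 difference of USP18ko minus WT for each measured gene of the 7 endothelial genes and of 14 related lists, 1 row per list, with each gene as a point and the list median as a vertical line. Red points passed the adjusted p of 0.05, and they lie in the rows of Icam1, of leukocyte partners, of NF-kappaB genes (Ccl2), of interferon-stimulated genes and of microglia and leukocyte markers, while the rows of other vascular genes have none.

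As background, NF-kappaB is known to induce Icam1, Vcam1 and, in mice, Selp in inflamed vessels. Of 13 measured genes of that pathway and its inducers, 1 rose in USP18ko against WT (list median 0.12). It was the chemokine gene Ccl2 (1.37, SE 0.14, adjusted p = 5.74e-05). The pathway's inducers Tnf and Il1b, named after their values were seen, differed by -0.01 and 0.23 without passing. Il1b was still higher on each USP18ko array than on every array of the other genotypes, while Tnf overlapped. The mean over the list was highest on the USP18ko arrays only with Ccl2 included. Ccl2 read 5.57 on USP18ko replicate 1 and 4.40 on IFNARko replicate 1. Without Ccl2 the list mean of the former no longer lay above that of the latter. With Ccl2, the mean was 6.4659 to 6.5561 in USP18ko and 6.2805 to 6.3369 in WT. In the double knockout it was 6.1999 to 6.2445, and in IFNARko 6.1619 to 6.3998. The part of this pathway in the Icam1 difference was not tested. Of 8 measured interferon-stimulated genes 6 rose, with a median of 3.52, among them Ifit1 and Irf7 at 4.87 and 3.40 (adjusted p = 1.40e-08 and 4.71e-09). The list medians for the double knockout against USP18ko were -0.18 and -3.93, with 1 and 7 genes lower. Beside these counts, the share of all genes called was 1.15% for USP18ko minus WT. It was 1.51% for double knockout minus USP18ko.

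Some markers of other cells that can hold Icam1 also rose. Of 10 measured microglia and macrophage markers 3 rose in USP18ko against WT, Aif1 by 1.93 (adjusted p = 0.00205), Laptm5 by 1.25 (adjusted p = 0.00673) and Itgam. The median difference of these markers was 0.63. Their lowest was -0.35, for P2ry12, named after its values were seen, which did not pass. The mean over the list was 6.43 to 6.49 in the double knockout, 6.94 to 7.50 in USP18ko and 6.51 to 6.74 in IFNARko, against 6.16 to 6.90 in WT, and the summed linear signal was 1523 to 1603, 2301 to 3738 and 1572 to 2019 in these knockouts in the same order, against 1212 to 2116 in WT. Of 9 lymphocyte and granulocyte markers 1 rose, the leukocyte gene Ptprc, by 2.12 (adjusted p = 2.23e-04), with a list mean of 4.72 to 5.10 in the double knockout, 5.35 to 5.50 in USP18ko and 4.69 to 5.13 in IFNARko, against 4.74 to 4.88 in WT. Its summed linear signal was 276 to 374 in the double knockout, 494 to 597 in USP18ko and 274 to 388 in IFNARko, against 291 to 324 in WT. The list's median log2 difference in USP18ko against WT was 0.03. After Ptprc the list's largest differences were those of the granulocyte genes S100a8 and S100a9 (1.90 and 1.63, adjusted p = 0.112 and 0.0894, not passing). The T and B cell genes Cd3e, Cd4, Cd8a and Cd79a differed by -0.0048, -0.0538, -0.12 and -0.10 without passing. Cd3g and Nkg7, of the same list, went slightly the other way without passing. They averaged 3.34 and 4.33 in USP18ko, against 3.31 and 4.22 in WT. Apart from Ptprc, the lymphocyte and granulocyte genes were named after their values were seen. On this log2 scale no marker reads 0. Their part in the Icam1 difference was not tested. No marker was called among 9 astrocyte, 4 choroid plexus and 8 meningeal fibroblast genes, whose medians in USP18ko against WT were 0.05, -0.17 and -0.02. In USP18ko against WT 1.15% of all genes were called.

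The genes whose profile over the 12 arrays was nearest to that of each member were found by the root mean square (RMS) difference of log2 signals after centring each gene. For Icam1 they were Fyb, Fgl2 and Tor3a, at 0.20, 0.20 and 0.22, where the RMS of Icam1 around its own mean was 0.64. Fyb encodes an adaptor of leukocyte signalling, Fgl2 a fibrinogen-like prothrombinase and Tor3a a torsin-family ATPase. Fyb read 5.41, 5.19 and 5.29 in the double knockout, 6.61, 7.07 and 6.63 in USP18ko, 5.99, 5.28 and 5.19 in IFNARko, and 5.28, 5.52 and 5.62 in WT. Their log2 differences in USP18ko against WT were 1.29, 1.07 and 1.47, which describes the choice by likeness to Icam1 on the same arrays and is no test.

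**Figure D5:**
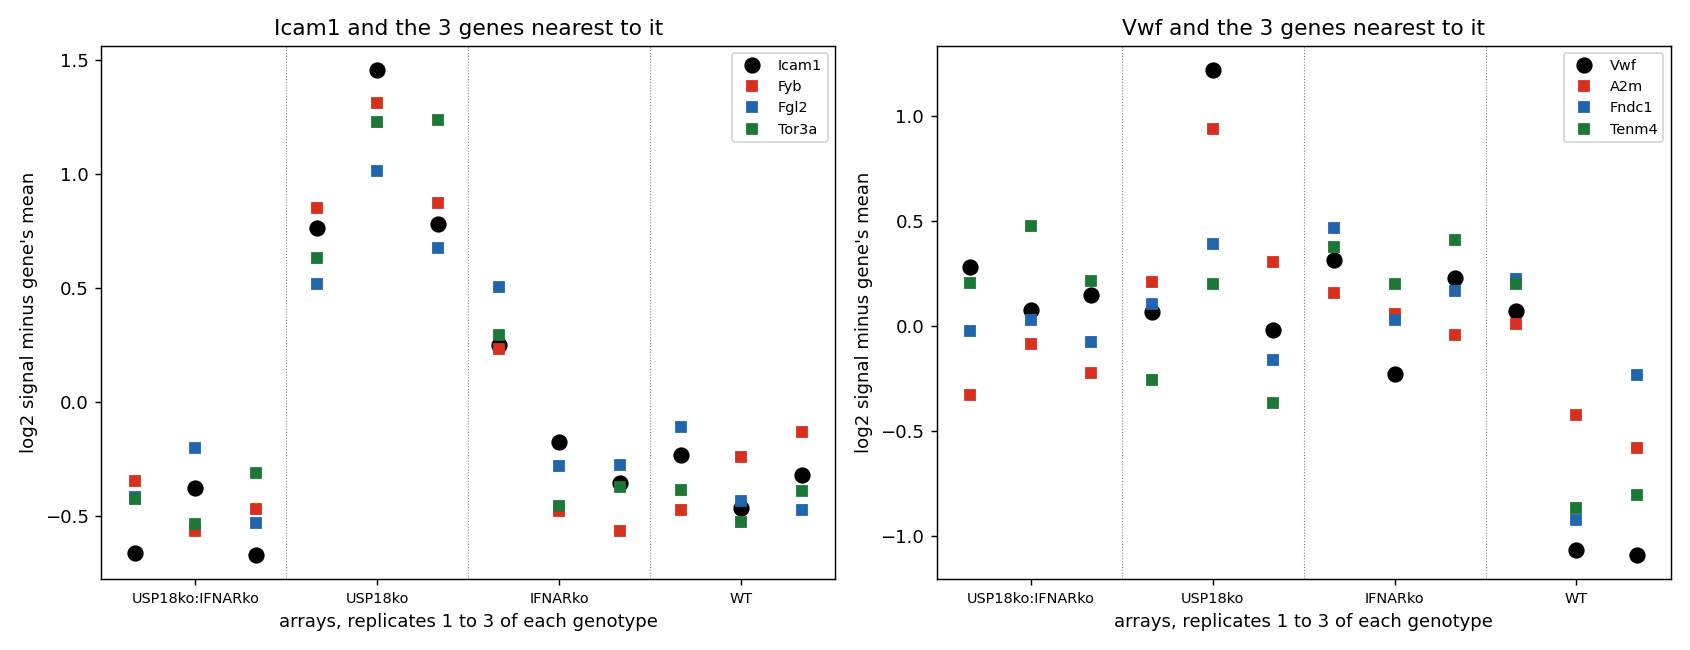
Log2 signal minus the gene's own mean on each of the 12 arrays, in 4 blocks by genotype, for Icam1 with Fyb, Fgl2 and Tor3a (left) and for Vwf with A2m, Fndc1 and Tenm4 (right). The 3 USP18ko arrays stand above the other 9 in the Icam1 panel, and 2 WT arrays are the lowest for Vwf.

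The nearest genes of the other members were found in the same way. For Vwf, at an own RMS of 0.59, they were A2m, a protease inhibitor gene, Fndc1 and Tenm4, at 0.36, 0.38 and 0.39, and A2m differed by 0.82 in USP18ko against WT. For Vcam1 they were D17H6S56E-5, Plagl2 and Pmp22 (0.09, 0.09 and 0.11, against an own RMS of 0.17). For Selp they were Cfi, Rin2 and Scd3 (0.12 each, against 0.20). Nearest to Cldn5 were Slc27a1, Anxa6 and Wls (0.07, 0.08 and 0.08, against 0.21), which like Cldn5 were lowest on IFNARko replicate 1. Nearest to Cdh5 were Abca1, Slit2 and Trp53bp1 (0.08, 0.10 and 0.10, against 0.24), which like Cdh5 were lowest on WT replicates 2 and 3. For Pecam1, where IFNARko replicate 1 was the low array, Sgta, Coro1c and Eef2 were nearest (0.08, 0.08 and 0.09, against 0.38).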

How the data were processed

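Biotin-labelled RNA of 12 whole-brain samples was hybridised to Affymetrix arrays, per the labels' protocols. The authors deposited 1 log2 signal for each probe set, made with the R package affy, per the submitters' processing notes. Version, background correction and normalization stay unknown from these sources, and base 2 was inferred from the range of 2.36 to 13.81. Of 22690 probe sets, 20380 name 1 gene in the platform annotation, 691 several and 1555 are not listed. Each gene was represented by its probe set with the highest mean, giving 12393 genes. Groups followed the genotype labels. Genes were tested with limma 3.58.1 in R 4.3.3, two-sided, with genotype as the only term, 8 residual and 4.67 prior degrees of freedom, in 6 comparisons. An exact test of 3 against 3 cannot go below p = 0.1, so calls rest on spread shared across genes. Same-numbered deviations of the double knockout and USP18ko correlated above 0.1 in all 3 pairs (0.14 to 0.27), the 1 comparison of the 5 where they did, so the replicate block applies there. Alternatives were other probe set summaries, a low-signal filter, normalizations, weights, variance models, a replicate block, an Eif2s3y covariate, fewer groups and left-out arrays. Members, lists, motifs, tests and most alternatives were chosen with earlier results of these data known. By rule, named genes are the members, Usp18, Ifnar1, array checks, up to 4 called genes per list and the 3 nearest profiles, and genes outside it are marked as such in the text. Gene positions and promoter windows are RefSeq's, of build GRCm38.p6.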

Additional observations from a re-analysis of the deposited data

Results flagged for a closer look

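The effect of losing Usp18 on Icam1 differed between receptor backgrounds. The double knockout minus IFNARko difference was -0.48, and the USP18ko minus WT difference was 1.34. The interaction was -1.82 (SE 0.27, limma adjusted p = 0.00407). All 3 USP18ko arrays lay above the 3 WT arrays, as did 4.07% of all genes. All 3 double knockout arrays lay below the 3 IFNARko arrays, as did 11.2% of all genes. There the nearest arrays read 5.31 and 5.33. The interaction was -1.68 (adjusted p = 0.132) with Eif2s3y as a covariate and -1.65 (adjusted p = 0.006) without IFNARko replicate 1. Xist was high on all 3 double knockout arrays and low on all 3 IFNARko arrays, so that genotype and sex cannot be told apart by it. Double knockout replicate 2 also had the Y-linked Eif2s3y at 7.16, against 3.05 and 3.22 on its group mates, so the covariate does not separate the groups as Xist does.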

How the results depend on the processing

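Icam1 kept its direction and its call for USP18ko minus WT and for double knockout minus USP18ko under all alternatives that tested it, with values of 1.30 to 1.34 and -1.57 to -1.48. Leaving out arrays gave 1.11 to 1.46 and -1.69 to -1.34, and for the interaction -1.95 to -1.59. The filter at the 40th percentile left Icam1, Selp, Pecam1, Vwf and Cdh5 out, so that 0 members were called in these comparisons and by the F test. With Eif2s3y as a covariate 0 members had a called interaction (Icam1 -1.68), and with array weights, whose estimation stopped before convergence, 2 were called in the double knockout against USP18ko. Members called in USP18ko against WT ranged from 1 to 2 without single arrays.

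Deviations of same-numbered samples correlated above 0.1 in 6 of 18 pairs of arrays (-0.15 to 0.27), among them all 3 pairs of the double knockout with USP18ko. In that comparison the replicate block called 178 genes, against 187 without it, and Icam1 with an adjusted p of 9.62e-04. The replicate block left each Icam1 difference at 1.34, -1.57 and -1.82 and ended no member's call. It called 0 genes for IFNARko minus WT and 0 for double knockout minus WT, where 1 and 2 were called without it.

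Values that changed sign were all uncalled. With array weights they were Cdh5 0.0563, Cldn5 -0.0797 and Pecam1 -0.0285 in the double knockout against IFNARko, Cldn5 0.15 and Pecam1 0.13 in IFNARko against WT, and Cldn5 -0.0245, Pecam1 -0.0355 and Selp 0.13 in the interaction. With Eif2s3y they were Cdh5 -0.22 and Pecam1 -0.15 in the double knockout against USP18ko, Pecam1 -0.0608 against WT, Vwf -0.43 against IFNARko, and Pecam1 -0.0095 and Selp 0.0773 in the interaction. With the mean of probe sets, Cdh5 was 0.10 and Vcam1 0.24 in the double knockout against IFNARko, and Vcam1 -0.0723 in IFNARko against WT. Pecam1 in USP18ko against WT was -0.0239 with quantile normalization and -0.0194 with median centring. Their causes were not tested.

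Without single arrays, ranges that spanned 0 were, in the double knockout against IFNARko, Cdh5 -0.22 to 0.0523, Cldn5 -0.0771 to 0.32, Pecam1 -0.12 to 0.65, Selp -0.0159 to 0.18, Vcam1 -0.10 to 0.0193 and Vwf -0.10 to 0.17. In the double knockout against USP18ko they were Cdh5 -0.0360 to 0.10 and Vwf -0.47 to 0.15, in IFNARko against WT Cldn5 -0.22 to 0.18 and Pecam1 -0.57 to 0.20, in USP18ko against WT Cldn5 -0.12 to 0.0463, Pecam1 -0.06 to 0.11 and Selp -0.0762 to 0.19, and in the interaction Cldn5 -0.0350 to 0.36, Pecam1 -0.12 to 0.64 and Selp -0.13 to 0.13.

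Counts over all genes moved more. They ran from 28 to 190 in USP18ko against WT (143), 37 to 500 in the double knockout against USP18ko (187), 20 to 130 in the interaction (105), 0 to 814 in the double knockout against IFNARko (0), 0 to 5 in IFNARko against WT (1) and 0 to 3 in the double knockout against WT (2). The lowest counts of the first 3 came from the filter, and 500 and 814 from array weights. With no scanner files, signal over background is unknown, which limits what the low levels of Selp, and of Icam1 outside USP18ko, can show.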
